A study of Zea mays with 4 samples.

Results

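The miR156 family of maize (Zea mays) is represented in the deposited small RNA table by 23 entries, and 10 of them, the main mature strands, are described here. They are zma-miR156a-5p, zma-miR156b-5p, zma-miR156c, zma-miR156d-5p, zma-miR156e-5p, zma-miR156f-5p, zma-miR156g-5p, zma-miR156h-5p, zma-miR156i-5p and zma-miR156l-5p, out of 576 entries in all, and the species prefix zma is left out of names below. They were taken by name as the abundant strands of the family, so their high level is part of the choice and not a result. The lowest of them, miR156l-5p, lay 3.16-fold to 21.0-fold above the next entry of the family, miR156k-5p, in the 4 libraries.

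Root tips of the cultivar Zhengdan 958, a hybrid, were sampled from seedlings grown in Hoagland's nutrient solution in a greenhouse. The 4 libraries came from crown roots (CR, 15 days after germination), seminal roots (SR, 7 days), primary roots at a later stage (PRO, 15 days) and primary roots at an early stage (PRY, 3 days). The outermost 1 cm of each root was taken, and CR, SR and PRY roots were about 3 to 5 cm long. Each group had 1 library, so every difference is between libraries, with no replicate check. Root type or stage and seedling age cannot be told apart, except that CR and PRO came from seedlings of equal age. That age is not the age of the root, and no root length is given for PRO. Root type and root stage thus remain mixed between CR and PRO. Library totals recovered from the values were 10920069 reads in CR, 11572637 in SR, 11057522 in PRO and 10721082 in PRY. Small RNA carries no root marker transcripts against which the tissue could be checked. Of the 15 entries of miR2118 and miR2275, families known from maize anthers, 11 were listed at 0 in every library and none had more than 1 read.

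miR156 is among the most conserved plant microRNAs. It pairs with transcripts of SBP-box (SPL) transcription factors and lowers their output by cleavage and by blocking translation. High miR156 marks the juvenile phase of the shoot, and its decline with age releases SPL factors, some of which raise miR172. In maize its targets include tga1, the gene behind the naked kernel, and the dominant Corngrass1 mutant, which overexpresses a tandem pair of miR156 genes, stays juvenile. In Arabidopsis roots, miR156 and its SPL targets affect the number of lateral roots. Hairpins at several loci give rise to nearly the same mature strand, so a sequenced read often cannot be assigned to a locus.

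Of the 10 strands, 9 matched an annotated miRNA gene by name in RefSeq (assembly Zm-B73-REFERENCE-NAM-5.0), and miR156c did not. The 9 genes lie on 6 chromosomes and span 90 to 167 bases. None of the 11 miR156 genes in that annotation, MIR156j and MIR156k included, had another miR156 gene as its direct neighbour. Because miR156c had no matched gene, a neighbouring pair that includes it could not be seen, and clustering of its locus is left undecided.

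All 10 main strands were lowest in the crown root and highest in the early primary root. Levels are given in RPM, reads of an entry for every 1000000 reads of the library total. That total is the one recovered from the values, and which reads it covers is not stated. miR156d-5p, the highest strand, stood at 4576 RPM in CR, 8807 in SR, 10527 in PRO and 20801 in PRY. The 95% exact Poisson intervals of these levels were 4536 to 4616 in CR, 8753 to 8861 in SR, 10466 to 10587 in PRO and 20715 to 20887 in PRY, and cover counting error only. They did not overlap, and with the library total the order of the libraries was CR, SR, PRO, PRY from low to high. SR and PRO change places with the other scalings described below. As a share of the library total, miR156d-5p made up 0.458% of CR (95% exact binomial interval 0.454 to 0.462), 0.881% of SR (0.875 to 0.886), 1.05% of PRO (1.05 to 1.06) and 2.08% of PRY (2.07 to 2.09). Among the highest entries of the 29 known families it took rank 3 in CR, SR and PRO and rank 2 in PRY. miR156l-5p, the lowest of the 10, stood at 4058 RPM in CR, 8221 in SR, 9603 in PRO and 20284 in PRY. Highest and lowest strand thus differed by 12.7% in CR, 7.12% in SR, 9.62% in PRO and 2.55% in PRY.

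**Figure D1:**
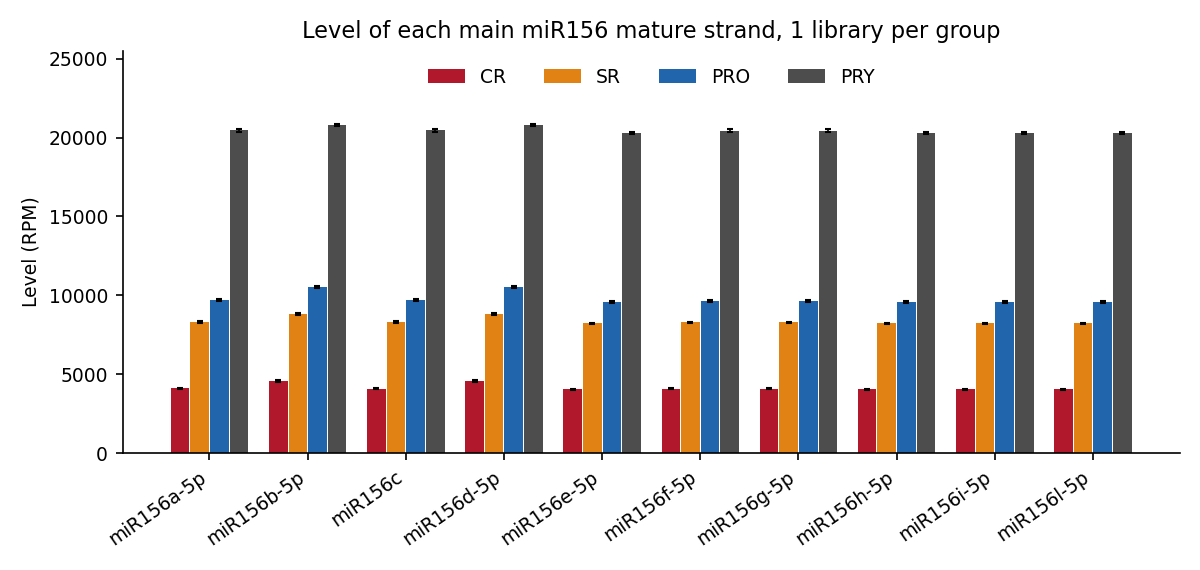
Level in RPM (linear axis from 0) of each of the 10 main miR156 strands in the CR, SR, PRO and PRY libraries, with 95% exact Poisson intervals for counting error. Every strand is lowest in CR, at 4058 to 4576 RPM, and highest in PRY, at 20284 to 20801 RPM, and the strands are nearly level with each other within a library.

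The strands did not carry independent measurements. miR156e-5p, miR156h-5p and miR156i-5p had identical values in every library, so the 10 entries held 8 distinct sets of values. They formed 4 tiers in the same order in all 4 libraries. The lowest tier comprised miR156e-5p, miR156h-5p, miR156i-5p and miR156l-5p, the last of which had 1 to 4 reads fewer than the others. miR156f-5p and miR156g-5p came next, within 1 to 8 reads of each other. miR156a-5p and miR156c followed, within 7 to 21 reads, and miR156d-5p and miR156b-5p were at the top, within 4 to 23 reads. Each tier held 44318 or more reads in every library, so the entries of a tier are near copies of a single measurement. The tiers were also close to each other, with 2.55% (PRY) to 12.7% (CR) between the highest and the lowest strand. Counts of strands given below therefore do not stand for 10 separate measurements, and a split count can arise from 1 shared signal near the 2-fold line. Nothing in the labels or the table says whether the reads of a lower tier are all contained in the tier above. The differences between tiers are described below as reads that the higher entry has beyond the lower one.

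The crown root and the early primary root were furthest apart. miR156e-5p, of the lowest tier, had 44319 reads in CR and 217465 in PRY, and was 5.00-fold lower in CR (95% exact conditional binomial interval 4.95 to 5.05). miR156d-5p, of the top tier, had 49967 reads in CR and 223007 in PRY, and was 4.55-fold lower (4.50 to 4.59). The top tier thus differed less between the libraries than the lowest tier. The intervals of these folds do not overlap, but they treat the entries as independent, so this is no test of that difference. miR156d-5p had 5648 reads beyond miR156e-5p in CR and 5542 in PRY. That was 11.3% of the reads of miR156d-5p in CR and 2.49% in PRY. An entry that reached 10 RPM in either library was counted as lower or higher from a log2 difference of 1 upward in RPM + 1, in other words from 2-fold. By this rule 10 of 10 strands were lower in CR, where 24.8% of all 101 entries reaching the minimum were lower, or 16.5% of the 91 entries that are not among the 10. The median log2 ratio of the strands was -2.32, against -0.64 over all entries. Of the 17 families whose highest entry reached 10 RPM, miR156 had the lowest log2 ratio, -2.18, followed by miR528b-5p at -1.33. All 10 strands were also lower with each of 5 other scalings of the libraries, with miR156d-5p between -2.21 and -1.07.

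The seminal root also had less miR156 than the early primary root. miR156e-5p had 95145 reads in SR and 217465 in PRY, 2.47-fold lower in SR (2.45 to 2.49). miR156d-5p had 101915 reads in SR and 223007 in PRY, 2.36-fold lower (2.34 to 2.38). Counted as lower in SR were 10 of 10 strands, where 29.7% of all 101 entries and 22% of the other 91 were lower. The median of the strands was -1.30, against -0.65 over all entries. With each of the other 5 scalings 0 of 10 strands passed the 2-fold line, and miR156d-5p then lay between -0.75 and -0.41. The family also stood less apart here, since miR319b-3p, of a family that targets TCP transcription factors, had a lower log2 ratio of -1.48.

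Within the primary root, the later stage had less miR156 than the early stage, with strands on both sides of the 2-fold line. miR156e-5p had 106186 reads in PRO and 217465 in PRY, 2.11-fold lower in PRO (2.10 to 2.13). miR156d-5p had 116398 reads in PRO and 223007 in PRY, 1.98-fold lower (1.96 to 1.99). Thus 8 of 10 strands were counted as lower, where 16.7% of all 102 entries and 9.78% of the other 92 were lower. The remaining strands, miR156b-5p and miR156d-5p, lay just outside the line, miR156d-5p at -0.98, and miR156a-5p lay just inside it at -1.08. Even so, miR156 had the lowest log2 ratio of the 17 families whose highest entry reached 10 RPM. The median of the strands was -1.08, against -0.17 over all entries. With DESeq2 size factors 8 strands were lower, and with each of the 4 remaining scalings 0 were, with miR156d-5p between -0.92 and -0.47 over the 5.

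The crown root was set against the primary root of equal seedling age as well, where root type and root stage still cannot be told apart. miR156e-5p had 44319 reads in CR and 106186 in PRO, 2.37-fold lower in CR (2.34 to 2.39). For miR156d-5p the crown root had 49967 reads and the later primary root 116398, a 2.30-fold lower level (2.28 to 2.32). Counted as lower were 10 of 10 strands, where 28.4% of all 95 entries and 20% of the other 85 were lower and 3.16% of all were higher. The median of the strands was -1.24, against -0.31 over all entries. Several other families differed more, among them miR528b-5p at -3.83 and miR172a at -2.02. With edgeR TMM factors 10 strands were lower, and with each of the 4 remaining scalings 0 were.

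Against the seminal root, the crown root library was again lower. miR156e-5p had 44319 reads in CR and 95145 in SR, 2.03-fold lower in CR (2.00 to 2.05). The level of miR156d-5p differed slightly less, 1.92-fold (1.90 to 1.95). Counted as lower were 8 of 10 strands, where 18.5% of all 92 entries and 11% of the other 82 were lower and 6.52% of all were higher. The exceptions were again miR156b-5p and miR156d-5p (miR156d-5p at -0.94), while miR156a-5p lay just inside the line at -1.02. The median of the strands was -1.02, against 0.05 over all entries. Other families had lower log2 ratios than miR156d-5p, namely miR528b-5p at -3.21, miR408b-5p at -1.46 and miR172a at -1.00. TMM factors gave 10 strands, DESeq2 factors and the miRNA total without miR156 gave 8 each, and the other 2 scalings gave 0.

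Seminal and later primary root were close. miR156e-5p had 95145 reads in SR and 106186 in PRO, 1.17-fold lower in SR (1.16 to 1.18). For miR156d-5p the fold was 1.20 (1.19 to 1.21). No strand was counted in either direction, where 17.5% of 97 entries were lower in SR (19.5% of the other 87) and 2.06% were higher. The log2 ratio of miR156d-5p was -0.26 with the library total and turned positive, up to 0.16, with each of the 5 other scalings. The order of SR and PRO for miR156 therefore depends on the scaling.

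**Figure D2:**
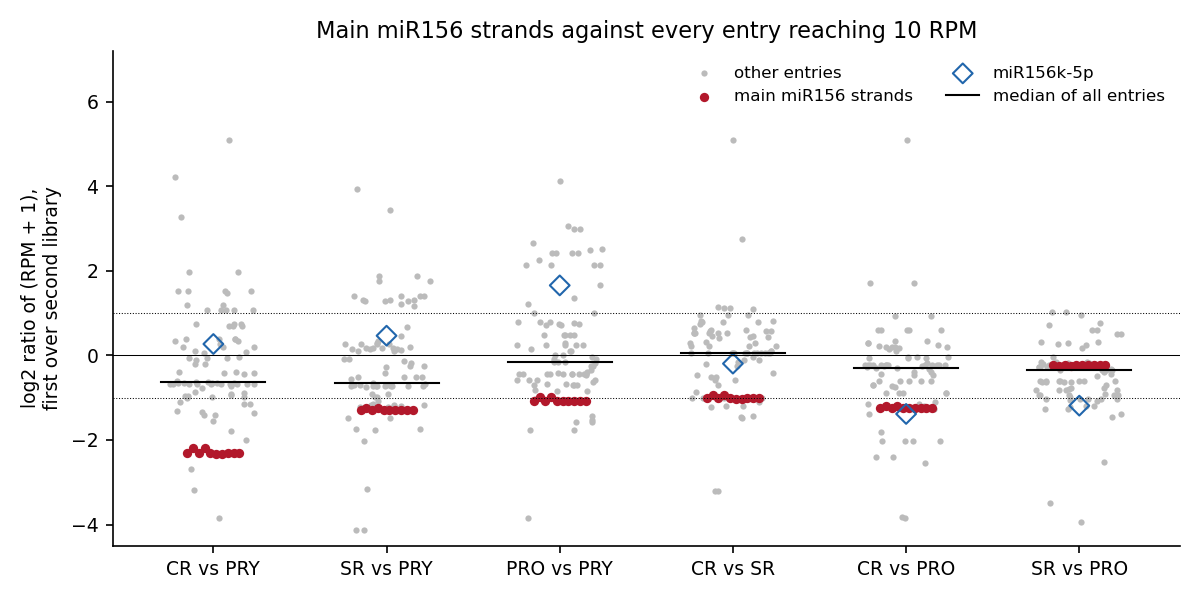
Log2 ratio of RPM + 1 in 6 comparisons, first library over second, for the 10 main miR156 strands (red), miR156k-5p (blue diamonds) and every other entry reaching 10 RPM in either library (grey, spread sideways at random), with the median of all entries as a black line and dotted lines at the 2-fold difference. The red points are tightly grouped, lie at -2.32 to -2.18 in CR against PRY, and lie near the overall median in SR against PRO, while the blue diamond lies above them in the first 4 comparisons.

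The microRNA content of the libraries differed as well. Distinct miRNA entries outside miR156 summed to 12.0% of the library total in CR, 12.0% in SR, 15.3% in PRO and 17.0% in PRY, with shared reads counted repeatedly. The highest entries of all families summed to 6.77% of the total in CR, 7.17% in SR, 9.12% in PRO and 10.6% in PRY, a sum of which miR156d-5p took 6.76% in CR, 12.3% in SR, 11.5% in PRO and 19.6% in PRY. The part of this difference in library content in the miR156 ratios was not tested. Other scalings moved the median log2 ratio of all entries by up to 1.22. A scaling shifts all entries alike, so the distance of the strands from that median is nearly fixed by construction and bears only on their place among the entries. Their median minus that of all entries was -1.79 to -1.67 in CR against PRY, over the 6 scalings. The same difference was -0.97 to -0.91 in PRO against PRY, -0.76 to -0.63 in SR against PRY, -0.97 to -0.93 in CR against PRO and -1.08 to -1.07 in CR against SR. In SR against PRO it was 0.11 to 0.12.

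**Figure D3:**
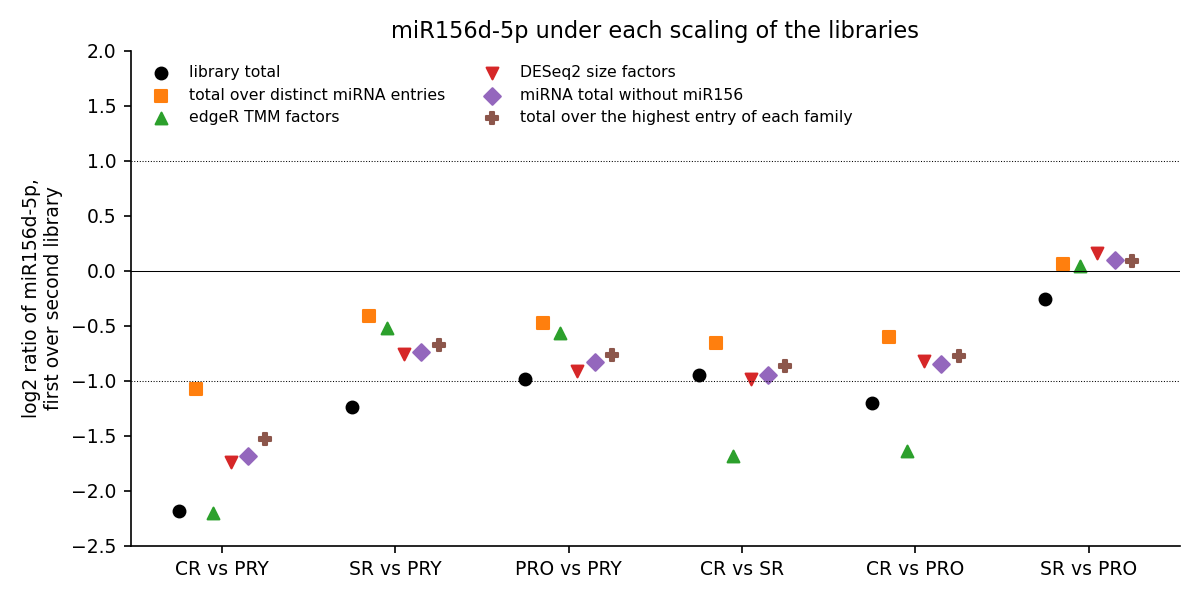
Log2 ratio of miR156d-5p (RPM + 1) in each of 6 comparisons under 6 scalings of the libraries (symbols), with dotted lines at the 2-fold difference. In CR against PRY every symbol lies below -1, in the next 4 comparisons the symbols lie on both sides of -1 or above it and all below 0, and in SR against PRO only the library total gives a value below 0.

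The differences between tiers had patterns of their own. miR156d-5p had 5206 reads beyond miR156a-5p in CR, 5771 in SR, 9300 in PRO and 3761 in PRY. This was 477 RPM in CR, 499 in SR, 841 in PRO and 351 in PRY, so the step was lowest in the library in which the strands themselves were highest. The step was 2.40-fold higher in PRO than in PRY (2.31 to 2.49), 1.42-fold higher in SR than in PRY (1.36 to 1.48) and 1.36-fold higher in CR than in PRY (1.30 to 1.42). These intervals treat the extra reads as a set of their own. Each direction held in 6 of 6 scalings, with folds over PRY of 1.34 to 2.94 in CR, 1.42 to 2.52 in SR and 2.40 to 3.41 in PRO. As a share of the reads of miR156d-5p, which needs no scaling, the step came to 10.4% in CR, 5.66% in SR, 7.99% in PRO and 1.69% in PRY. The step of miR156b-5p over miR156c was nearly the same, with 5206 reads in CR, 5758 in SR, 9292 in PRO and 3773 in PRY.

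The step from the lowest tier to the next was instead lowest in CR and highest in PRY, as the strands were. miR156f-5p had 272 reads beyond miR156e-5p in CR, 772 in SR, 641 in PRO and 1591 in PRY. That was 5.96-fold lower in CR than in PRY (5.24 to 6.80), 2.22-fold lower in SR (2.04 to 2.43) and 2.56-fold lower in PRO (2.33 to 2.81). Between SR and PRO the step was 1.15-fold higher in SR (1.03 to 1.28), whereas miR156e-5p was lower in SR with the library total. As for the top step, these intervals treat the extra reads as a set of their own. They would not hold if the lower tier is not contained in the higher one, which is not known. Over the 6 scalings the step was lower than in PRY by 2.76-fold to 6.05-fold in CR, 1.25-fold to 2.22-fold in SR and 1.80-fold to 2.56-fold in PRO. As a share of miR156f-5p it stayed within 0.600% and 0.805% in the 4 libraries. The middle step, miR156a-5p over miR156f-5p, was small, with 170 reads in CR, 227 in SR, 271 in PRO and 190 in PRY. From the lowest to the top tier, the whole span was 517 RPM in CR, 585 in SR, 924 in PRO and 517 in PRY. The near equality of CR and PRY holds for the library total, and over the 6 scalings the span in CR was 0.985-fold to 2.16-fold that in PRY.

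miR156k-5p, the next entry of the family by level, was highest in PRO and lowest in PRY, as the step of miR156d-5p over miR156a-5p was. It stood at 1163 RPM in CR, 1332 in SR, 3040 in PRO and 966 in PRY. The step amounted to 41.0% of miR156k-5p in CR, 37.4% in SR, 27.7% in PRO and 36.3% in PRY. Both orders of the 4 libraries were the same, though CR and SR change places in 2 of 6 scalings for the step and in 1 of 6 for miR156k-5p. Whether miR156k-5p and the top tier share reads was not tested.

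**Figure D4:**
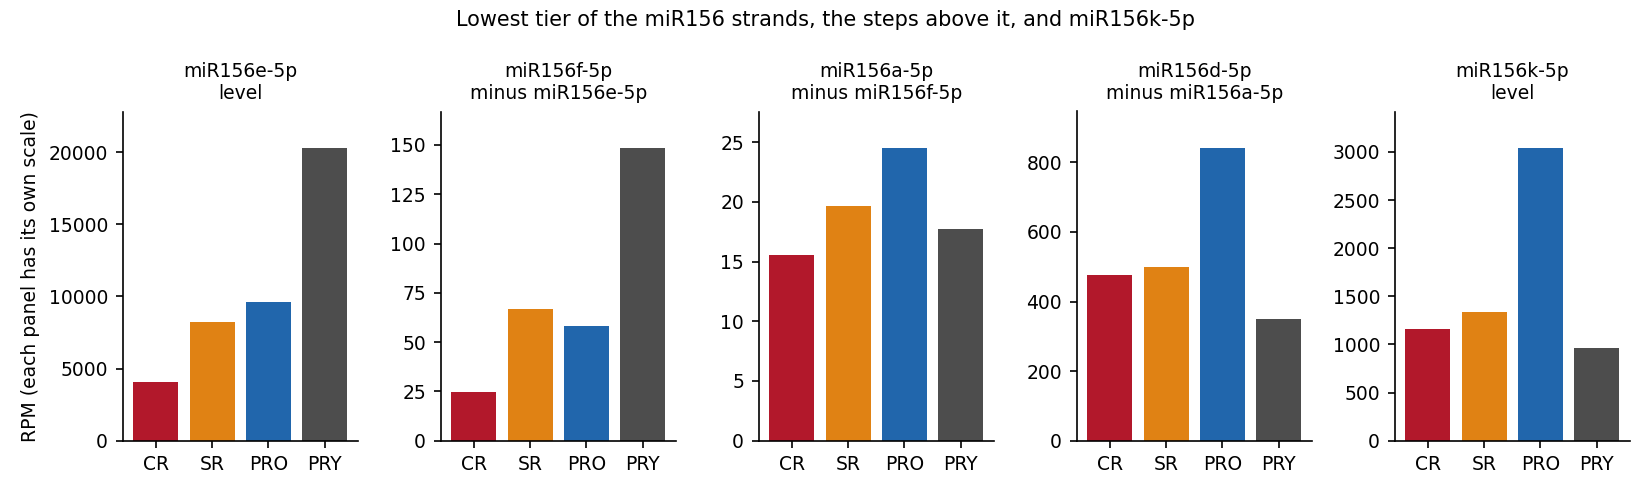
RPM in the CR, SR, PRO and PRY libraries of miR156e-5p, of 3 steps between tiers of the main miR156 strands, and of miR156k-5p; each panel has its own linear axis from 0. miR156e-5p and the lowest step are highest in PRY, at 20284 and 148 RPM, whereas the top step and miR156k-5p are highest in PRO, at 841 and 3040 RPM, and lowest in PRY.

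miR156k-5p was 3.15-fold higher in PRO than in PRY (3.08 to 3.22), where 18.6% of entries were counted as higher. It was 1.20-fold higher in CR than in PRY (1.17 to 1.24) and 1.38-fold higher in SR than in PRY (1.35 to 1.41), differences short of the 2-fold line with the library total. Over the 6 scalings it was 1.18-fold to 2.60-fold higher in CR, past the line in 1 of them, and 1.38-fold to 2.45-fold higher in SR, past it in 3. For each read of miR156k-5p there were 3.94 reads of miR156d-5p in CR, 6.61 in SR, 3.46 in PRO and 21.5 in PRY, a ratio that no scaling alters. miR156j-5p, the other 5p strand outside the 10, stood at 45.1 RPM in CR, 50.9 in SR, 57.1 in PRO and 46.4 in PRY. Over the 6 scalings it was 0.959-fold to 2.10-fold in CR and 1.10-fold to 1.95-fold in SR, relative to PRY. Of the 11 3p strands, the partner strands of the hairpins, only miR156b-3p reached 10 RPM, with 72 reads in CR, 235 in SR, 188 in PRO and 510 in PRY. That was 1.44 reads in CR, 2.31 in SR, 1.62 in PRO and 2.29 in PRY for every 1000 reads of miR156b-5p, and the other 10 strands stayed at or below 3.45 RPM. Of those, miR156d-3p had 24 reads in CR and 37 in PRY, 0.480 and 0.166 for every 1000 of miR156d-5p. miR156f-3p had 21 in CR and 35 in PRY, 0.471 and 0.160 for every 1000 of miR156f-5p. These shares were highest in CR, unlike that of miR156b-3p, but rest on few reads. miR156g-3p had the same reads as miR156f-3p, and the rest had 9 or fewer.

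miR172 represses AP2-like transcription factors and lies downstream of miR156 and SPL in the shoot. miR172a had 269 reads in CR, 581 in SR, 1138 in PRO and 198 in PRY, which was 24.6 RPM in CR, 50.2 in SR, 103 in PRO and 18.5 in PRY. The early primary root thus had the highest miR156 and the lowest miR172a of the 4 libraries, but CR, lowest in miR156, was also low in miR172a. Of the 8 miR172 entries, 6 of 6 measured were higher in SR than in PRY, where 17.8% of all entries were. In PRO, too, 6 of 6 were higher than in PRY, where 18.6% of all entries were. In CR against PRO 6 of 6 were lower, where 28.4% of all entries were, and these 3 counts were the same in 6 of 6 scalings. In CR against PRY 0 of 4 measured were counted with the library total, where 16.8% of all entries were higher, but 4 of 4 were higher in 2 of 6 scalings. Entries of miR172 share reads as those of miR156 do, so these counts stand for few measurements. miR172a, miR172b-3p, miR172c-3p and miR172d-3p had identical reads in every library. With the library total, miR172b-5p and miR172d-5p reached 10 RPM in SR and PRO but not in CR or PRY. They thus entered the 3 counts only through the library in which they were higher, which favours a call. For the same reason they were absent from the count in CR against PRY. For each read of miR172a there were 186 reads of miR156d-5p in CR, 175 in SR, 102 in PRO and 1126 in PRY. miR529-5p, of a family that also targets SPL transcripts in grasses, had 10 reads in CR, 3 in SR, 2 in PRO and 14 in PRY, too few for the 10 RPM minimum. For miR535, another family with SPL targets, the table analysed held 0 entries.

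Among families outside miR156, the pattern of miR156d-5p was compared by the root mean square difference of log2(RPM + 1), each centred on its own mean over the 4 libraries. Of 11 families whose highest entry reached 50 RPM, miR166a-3p, which represses class III HD-ZIP factors, was nearest at 0.55. It stood at 9969 RPM in CR, 9618 in SR, 11684 in PRO and 15878 in PRY. miR159a-3p, of a family that targets MYB factors, followed at 0.60, miR168a-5p, which targets AGO1, at 0.64, miR390a-5p at 0.71 and miR169c-5p at 0.81. By comparison, miR156e-5p lay at 0.05 and miR156k-5p at 1.04, farther from miR156d-5p than those 5 families. miR172a lay at 1.28. These are descriptions over 4 libraries. The distances only rank the families, and no unchanging profile was included for reference. miR156j-5p, which varied little between the libraries, lay at 0.77, nearer than miR169c-5p. A place among the nearest 5 can therefore go with little likeness. A place among the nearest 5 did not mean the same order of libraries. miR159a-3p was highest in PRO, at 103 RPM, as were miR390a-5p at 75.4 and miR169c-5p at 71.6. miR166a-3p and miR168a-5p were lowest in SR.

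**Figure D5:**
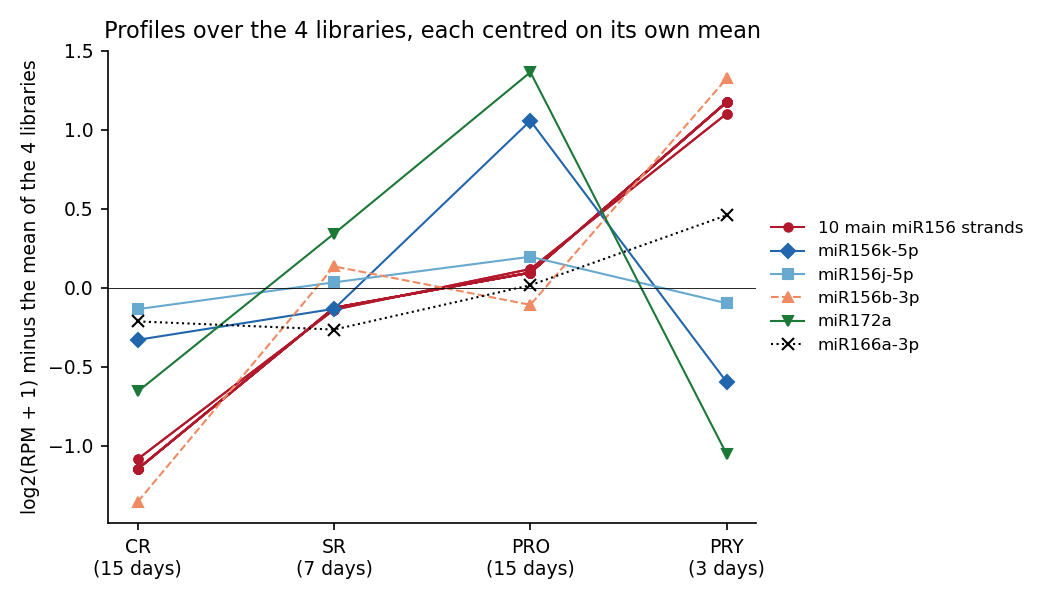
Log2(RPM + 1) minus its own mean over the 4 libraries, for the 10 main miR156 strands (red), miR156k-5p, miR156j-5p, miR156b-3p, miR172a and miR166a-3p; lines join the values of an entry and mark no order in time. The red strands run together, lowest in CR and highest in PRY, while miR156k-5p and miR172a are highest in PRO and lowest in PRY.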

How the data were processed

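Per the labels' protocols, gel-purified small RNA (18 to 30 nt) received adapters, went through 18 cycles of PCR and was read on an Illumina/Solexa instrument. The aligner, the miRNA release and the treatment of reads with several matches are not stated there. Values as deposited by the authors are headed TPM and were treated as RPM, since within a library all are multiples of the same step. With the totals that these steps gave, 100% of values were whole reads within 0.01 read. Column names matched the stage labels. A candidate that carries the family's number in the authors' own numbering was left out of the family.

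Entries were matched by name, and ratios were taken with a pseudocount of 1 RPM. Folds and their intervals used recovered reads without a pseudocount. Without molecular identifiers, PCR copies count as separate reads, and intervals therefore cover counting error only. With 1 library per group no test was possible, edgeR's quasi-likelihood test included, and no p-value is given. Reads at depths of 10721082 to 11572637 a library leave 3 reads, 0.259 to 0.280 RPM, as the floor. Other scalings were TMM factors from edgeR (4.0.16), size factors from DESeq2 (1.42.0), the total over distinct miRNA entries, the miRNA total without miR156, and the total over the highest entry per family. Python 3.11.15, numpy 2.4.6, pandas 2.3.3, scipy 1.17.1, matplotlib 3.10.9 and R 4.3.3 were used. A trial of the calling rule with simulated counts does not bear on strands near the 2-fold line. How far such calls would hold in further libraries was not tested. Named beside the strands were miR156 entries reaching 50 RPM or, for 3p strands, 10 RPM, the highest entries of miR172 and miR529, and the 5 families nearest in pattern. The 3p strands below 10 RPM and the other miR172 entries were named after their values were seen. Families with a lower ratio than miR156 were named after their values were seen. The strands, the lists and the 2-fold rule were chosen with earlier results of these data known. Mature sequences were not used here.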

Additional observations from a re-analysis of the deposited data

How the results depend on the processing

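The count of main strands lower in CR than in PRY, 10 of 10, was the same under all 10 alternatives (8 of 8 with identical entries counted once). Counts were 0 with the total over distinct miRNA entries in SR against PRY, PRO against PRY, CR against SR and CR against PRO. They were also 0 in those 4 comparisons with the total over the highest entry of each family. The miRNA total without miR156 gave 0 in SR against PRY, PRO against PRY and CR against PRO. TMM factors gave 0 in SR against PRY and PRO against PRY, and DESeq2 factors gave 0 in SR against PRY and CR against PRO. The total over distinct entries counts the main strands 8 times, so it moves with miR156 itself. Both pseudocount settings, both other minimums and counting identical entries once changed no count by more than 1.5 times. As a share of that distinct total, miR156d-5p made up 2.95% in CR, 4.67% in SR, 4.47% in PRO and 6.21% in PRY, so SR lay above PRO.

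No paired analysis was possible because each group has 1 library, which also leaves no replicate to omit. Depth does not limit the main strands, with 44318 or more reads each, whereas the spread between roots of a group is not known.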
